A study of Mus musculus with 10 samples.

Results

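The interleukin-1 (IL-1) family was followed in a fast-contracting leg muscle, the tibialis anterior, of mice with and without a Lewis lung carcinoma (LLC). The 10 genes were taken by name, with earlier results of these data known, out of the 39179 genes listed in each sample, and all 10 were found. They are the ligands Il1b, Il1a, Il18 and Il33, the receptor antagonist Il1rn, the receptor chains Il1r1, Il1rap, Il1rl1 and Il18rap, and the decoy receptor Il1r2. The LLC group held 6 mice that had received LLC cells, an established mouse lung cancer line, under the skin of both flanks, and the Control group held 4 mice that had received phosphate-buffered saline at the same sites. The sample labels give the strain C57BL/6J, an age of 10 weeks and 23 days of tumor development, whereas the series description gives male C57BL/10 mice, 8 weeks of age and 22 days, and this difference was not resolved. Neither group carried a transgene or a deletion according to the labels. The model is 1 transplanted line at 1 time point, sampled in mice that lived to the end of the experiment, and each mouse gave 1 library from whole muscle. The comparison of LLC with Control asked which transcripts of this cytokine system differed in muscle that wastes in cancer cachexia, the loss of body weight and muscle that tumors can cause.

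IL-1 family cytokines are early signals of infection and tissue damage. IL-1 alpha (Il1a) and IL-1 beta (Il1b) bind the receptor Il1r1, which then pairs with the accessory chain Il1rap, and the adaptor Myd88 with the kinases it recruits carries the signal to NF-kappaB. The antagonist Il1rn occupies Il1r1 without a signal, and Il1r2 takes up IL-1 but lacks the signalling part. IL-33 (Il33) acts through Il1rl1, also called ST2, with the same Il1rap chain, and IL-18 (Il18) acts through Il18r1 with Il18rap. IL-1 beta and IL-18 are made as precursors that inflammasome caspases cut, whereas IL-33 is stored in the nucleus of stromal cells. In muscle, IL-1 is known to promote protein loss, and IL-33 from stromal progenitors is known to sustain regulatory T cells.

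Read counts were compared on the common CPM scale, the count relative to the library total, after correction for library composition. Total counts ranged from 16693209 in LLC 1 to 21303084 in Control 2. A gene with fewer than 3 counts in a library was not taken as detected there. This floor, judged on counts, corresponded to 0.141 to 0.180 CPM before the correction for composition. The labelled tissue was borne out by 8 of 8 skeletal muscle fibre markers, whose summed level was 117371 to 124427 CPM in Control. LLC 1 stood apart, with a sum of 78582 CPM against 113660 to 128493 CPM in the other LLC mice, so the effect of leaving it out is given below. Mitochondrially encoded genes took 28.4% to 30.7% of counts in Control and 22.0% to 27.9% in LLC, with no overlap. In whole muscle, fewer cells of a type and less RNA per cell cannot be told apart.

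Of the 10 genes, 4 passed the filter on low counts (Il1b, Il1r1, Il1rap and Il33), and Il1b did so only through its LLC counts. Past the threshold, which asked for a change of 1.5-fold or more and an adjusted p of at most 0.05 (quasi-likelihood test of edgeR, adjusted by Benjamini and Hochberg), were 2 of them: Il1b rose and Il33 fell. In the same comparison 5.63% of 12690 tested genes were past the threshold, 1.65% higher and 3.99% lower in LLC. DESeq2's Wald test also placed Il1b and Il33 past the threshold, with 8.29% of tested genes. The other 6 members had too few counts for that test, so they were fitted with all 21983 genes that had at least 1 count, of which 3.64% were past the threshold, 1.15% higher and 2.49% lower. In that fit 4 of the 10 were past it, since Il18rap and Il1rn joined Il1b and Il33. The median log2 fold change of the 10 in that fit was 0.14, beside 0.00 over all genes with a count.

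The 2 groups did not overlap for Il1b, Il1rn and Il18rap, which were higher in every LLC mouse, or for Il33 and Il18, which were lower in every LLC mouse. For Il18 the raw counts tied, since LLC 5, Control 1 and Control 4 all had 2, and the groups were apart only after scaling. Among all genes with a count, 4.03% were higher and 6.12% lower without overlap, together 10.2%. Among tested genes 6.41% were higher and 9.55% lower without overlap, together 16.0%, and 2 of the 4 tested members were among them. Without LLC 1, 2 tested members were again past the threshold, Il1b and Il33, and so were Il18rap and Il1rn in the fit with no filter. Over all tested genes, 966 of 12624 were past it without LLC 1, against 715 of 12690 with it. The other 6 did not pass without LLC 1, with log2 fold changes of 0.52 for Il1r1 (edgeR's quasi-likelihood test, adjusted p = 0.0955), 1.02 for Il1r2, -0.37 for Il1rap, -0.40 for Il1rl1, -1.60 for Il18 and -1.99 for Il1a.

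**Figure D1:**
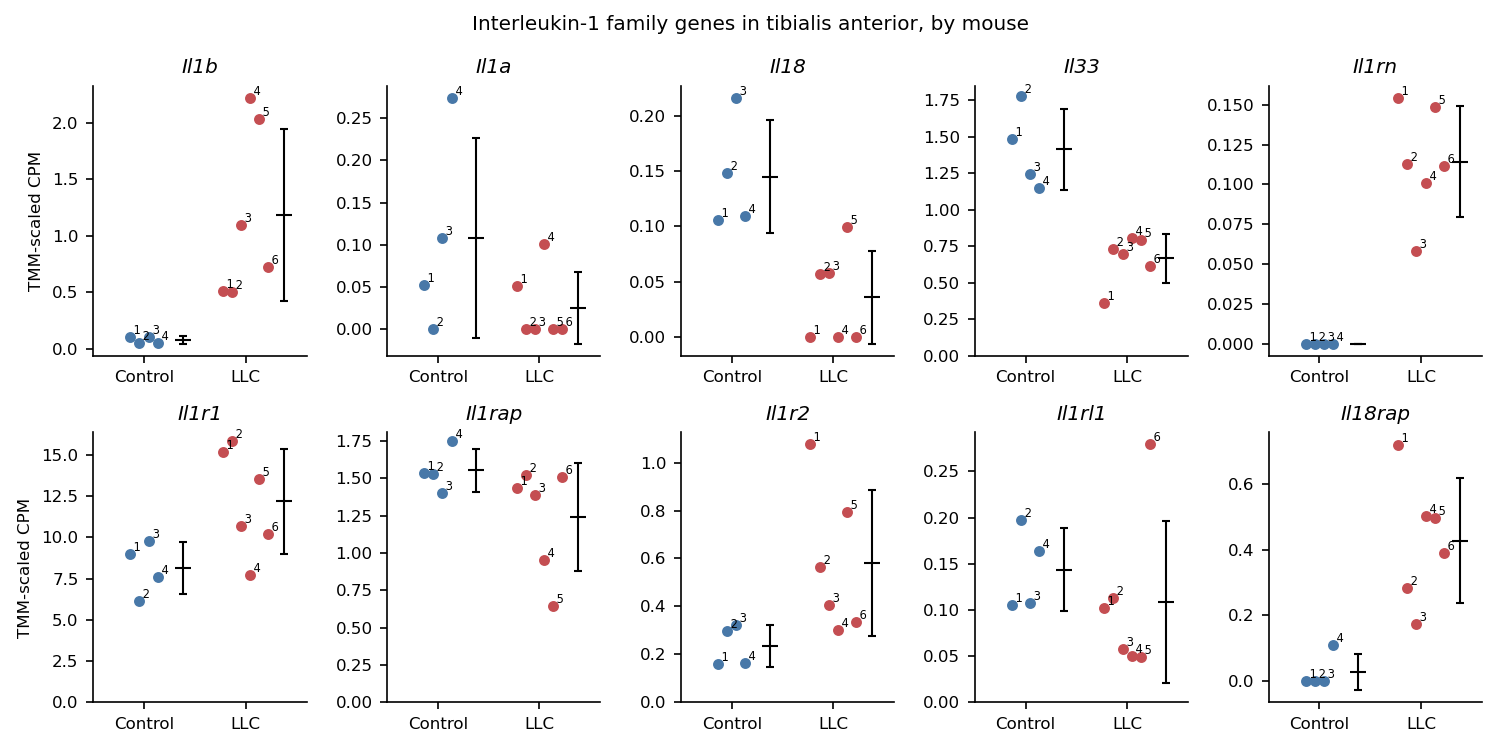
Level of each of the 10 genes in every mouse, as TMM-scaled CPM on a linear axis that differs between panels. Points are mice numbered within their group (blue, 4 Control; red, 6 LLC), and the bars beside them give the mean ± SD. The LLC mice sit above all Control mice for Il1b, Il1rn and Il18rap and below them for Il33 and Il18, whereas the groups overlap in the other 5 panels.

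**Figure D2:**
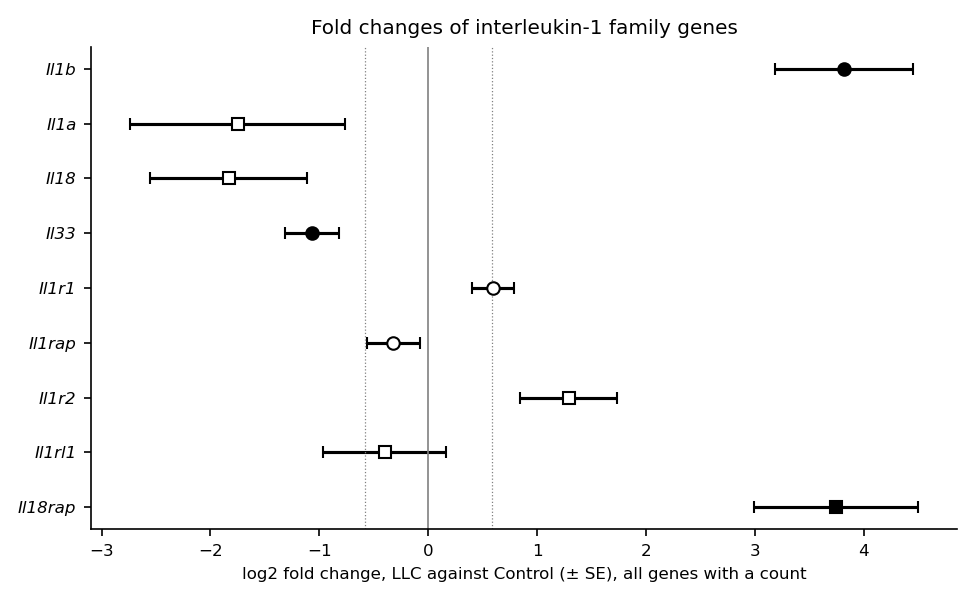
Log2 fold change of LLC against Control with its standard error for 9 of the 10 genes, from edgeR's fit of all genes with a count (Il1rn, with no count in Control, has no fold change). Circles are genes that passed the filter on low counts, squares those that did not, filled symbols are past the threshold in that fit, and dotted lines mark 1.5-fold. Il1b and Il18rap lie near 4 units to the right and Il33 lies near 1 unit to the left.

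Il1b (ENSMUSG00000027398, chromosome 2, 129364570 to 129371139, minus strand, GRCm38) encodes IL-1 beta, the main secreted form of IL-1. Its level in Control was 0.106, 0.0493, 0.108 and 0.0547 CPM, from 2, 1, 2 and 1 counts. In LLC it ran from 0.508 to 2.22 CPM with a median of 0.913. Every Control library lay under the detection floor and every LLC library above it, and LLC 4 and LLC 5 held the 2 highest values, 2.22 and 2.03 CPM. The mean went from 0.0795 ± 0.0318 CPM (SD, n = 4) to 1.18 ± 0.762 CPM (SD, n = 6), and the log2 fold change was 3.81 ± 0.68 (SE). Il1b rose in edgeR's quasi-likelihood test (Benjamini-Hochberg adjusted p = 0.00625), with 6 of 6 LLC mice above every Control mouse. Summed over libraries, 136 counts in LLC stood against 6 in Control, a scaled ratio of 15.3 with an exact 95% counting interval of 6.86 to 42.5. The spread within LLC was wide, with a coefficient of variation of 64.5%. Without LLC 1 the log2 fold change was 3.98 (adjusted p = 0.00186, edgeR). On the opposite strand, 25 exonic bases of Il1b overlap Il1bos, which had 1 count in all 10 libraries.

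The promoter of Il1b is shown because this gene had the clearest rise of the family. It was taken from RefSeq on GRCm38.p6 (chr2:129371090-129371389, minus strand), from 250 bases before to 50 after the transcript start, and the capitals mark matches to the motifs searched. These were a kappaB motif (GGG and CC with 5 free bases between them), AP-1 (TGANTCA), C/EBP (TTGCNNAA), STAT (TTCNNNGAA), ETS (GAGGAA) and a TATA box (TATAAA), read on both strands.
Il1b promoter: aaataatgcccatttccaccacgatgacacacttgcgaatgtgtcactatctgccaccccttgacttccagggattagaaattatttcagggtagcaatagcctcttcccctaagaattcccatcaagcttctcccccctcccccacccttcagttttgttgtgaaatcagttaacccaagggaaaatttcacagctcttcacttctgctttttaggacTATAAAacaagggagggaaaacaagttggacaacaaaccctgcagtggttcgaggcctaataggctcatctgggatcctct
The only match was TATAAA at position -31, counted with the first transcribed base as +1. Of 32851 RefSeq mouse promoters of this length, 13.6% held TATAAA, 50.8% the kappaB letters, 7.81% AP-1, 10.8% C/EBP, 8.30% STAT and 28.3% ETS. These are letter matches within this window, and the bases farther upstream were not read.

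Il1a (ENSMUSG00000027399, chromosome 2, 129299610 to 129309972, minus strand) encodes IL-1 alpha, which is active as a precursor and acts as a damage signal. Its counts in Control were 1, 0, 2 and 5, which gave 0.0529, 0, 0.108 and 0.274 CPM, and in LLC they ran from 0 to 2 with a median of 0. The groups overlapped, and no Il1a count was present in 4 of the 6 LLC libraries. The log2 fold change without the filter was -1.75 ± 0.98 (SE; edgeR's quasi-likelihood test, Benjamini-Hochberg adjusted p = 0.337). Exons of Il1a share 222 bases with the antisense gene Gm14023, which had 5 to 15 counts per library, and reads of the pair cannot be told apart if the counting ignored strand.

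Il18 (ENSMUSG00000039217, chromosome 9, 50554827 to 50581840, plus strand) encodes IL-18, which in other tissues drives interferon gamma production. It had 2, 3, 4 and 2 counts in Control, equal to 0.106, 0.148, 0.216 and 0.109 CPM. In LLC it had 0 to 2 counts, with a median of 0.0282 CPM and a highest value of 0.0991 CPM. All scaled LLC values lay below all Control values, and 2 Control libraries but no LLC library reached 3 counts. The log2 fold change without the filter was -1.83 ± 0.72 (SE) and did not pass edgeR's quasi-likelihood test (adjusted p = 0.173), whereas limma voom with sample weights on the same genes placed it past the threshold (adjusted p = 0.0422). The summed counts, 4 in LLC against 11 in Control, gave a scaled ratio of 0.246 with an exact 95% counting interval of 0.0570 to 0.829.

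Il33 (ENSMUSG00000024810, chromosome 19, 29925114 to 29960718, plus strand) encodes IL-33, a nuclear alarmin of stromal and epithelial cells. Its level in Control was 1.48, 1.78, 1.24 and 1.15 CPM. In LLC it ran from 0.360 to 0.806 CPM with a median of 0.714, and the lowest value was that of LLC 1. All 6 LLC mice lay below all 4 Control mice. The mean went from 1.41 ± 0.280 CPM (SD, n = 4) to 0.667 ± 0.166 CPM (SD, n = 6). With a log2 fold change of -1.08 ± 0.23 (SE), Il33 fell in edgeR's quasi-likelihood test (Benjamini-Hochberg adjusted p = 0.0161). The LLC mice differed less among themselves for Il33 than for Il1b, with coefficients of variation of 24.9% and 64.5%. Without LLC 1 the log2 fold change was -0.94 (adjusted p = 0.0103). The call was lost without Control 1 (adjusted p = 0.0560) or without Control 2 (adjusted p = 0.0640), where the log2 fold changes were -1.06 and -0.95.

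RefSeq gives Il33 a pair of transcript starts, whose promoters are shown because transcripts from either start are summed in the Il33 count. They lie on the plus strand of GRCm38.p6 at chr19:29924863-29925162 and chr19:29945540-29945839, and capitals again mark motif matches.
Il33 promoter, upstream start: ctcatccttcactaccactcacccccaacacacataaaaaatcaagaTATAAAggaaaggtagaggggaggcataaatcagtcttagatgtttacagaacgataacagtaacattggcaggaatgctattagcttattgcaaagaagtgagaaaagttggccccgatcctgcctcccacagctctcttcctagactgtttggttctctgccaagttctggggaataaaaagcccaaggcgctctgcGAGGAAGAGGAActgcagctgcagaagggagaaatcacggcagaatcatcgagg
Il33 promoter, downstream start: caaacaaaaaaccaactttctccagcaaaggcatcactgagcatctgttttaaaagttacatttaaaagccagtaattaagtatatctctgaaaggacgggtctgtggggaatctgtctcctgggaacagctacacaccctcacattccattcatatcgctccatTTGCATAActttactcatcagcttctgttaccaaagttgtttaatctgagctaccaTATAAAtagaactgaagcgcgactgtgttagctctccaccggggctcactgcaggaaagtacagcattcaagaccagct
The upstream promoter held TATAAA at -203 and GAGGAA at -4 and 3, and the downstream one held the C/EBP letters at -85 and TATAAA at -29. The counts do not show which start was used in either group.

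Il1rn (ENSMUSG00000026981, chromosome 2, 24336853 to 24351494, plus strand) encodes the IL-1 receptor antagonist, the natural blocker of Il1r1. It had 0 counts in all 4 Control libraries and 3, 2, 1, 2, 3 and 2 counts in LLC 1 to LLC 6. Every LLC mouse had a count and no Control mouse did, but single libraries were at or under the floor of 3 counts, so a difference was detectable only over the groups. Set against 3 counts assumed over the Control group, the 13 LLC counts gave a scaled ratio of 2.93. This ratio leaves out counting error and is no bound on the change. In the fit without the filter Il1rn was past the threshold (edgeR's quasi-likelihood test, adjusted p = 0.0307). It was past it in only 4 of the 10 fits that left out 1 library each, where edgeR's adjusted p ran from 0.0309 to 0.0789. DESeq2 gave it no adjusted p, and DESeq2's Wald test across all genes had an unadjusted p of 0.00445.

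Il1r1 (ENSMUSG00000026072, chromosome 1, 40225080 to 40317257, plus strand), the signalling receptor for IL-1, was the only member with more than 100 counts in every library. It had 170, 125, 181 and 139 counts in Control, from 6.17 to 9.78 CPM. In LLC it ran from 7.70 to 15.9 CPM with a median of 12.1. LLC 4 lay within the Control range and the other 5 LLC mice lay above it. The mean was 8.14 ± 1.59 CPM in Control (SD, n = 4) and 12.2 ± 3.17 CPM in LLC (SD, n = 6), and the log2 fold change was 0.58 ± 0.21 (SE). This did not pass edgeR's quasi-likelihood test (unadjusted p = 0.0161, Benjamini-Hochberg adjusted p = 0.108), nor DESeq2's Wald test (adjusted p = 0.0591). Without LLC 4 it passed, with a log2 fold change of 0.69 and an adjusted p of 0.0424, and over the 10 fits that left out 1 library the adjusted p ran from 0.0424 to 0.250.

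Il1rap (ENSMUSG00000022514, chromosome 16, 26581704 to 26730117, plus strand) encodes the accessory chain shared by the IL-1 and IL-33 receptors. Its level in Control was 1.53, 1.53, 1.40 and 1.75 CPM, and in LLC it ran from 0.644 to 1.52 CPM with a median of 1.41. LLC 4 and LLC 5, the 2 mice with the most Il1b, had the 2 lowest values, 0.957 and 0.644 CPM, and the other 4 lay within or just under the Control range. The log2 fold change was -0.33 ± 0.23 (SE; edgeR's quasi-likelihood test, adjusted p = 0.359). An antisense gene, Gm20319, shares 552 exonic bases with it and had 1 count in all libraries.

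Il1r2 (ENSMUSG00000026073, chromosome 1, 40074079 to 40125231, plus strand), the decoy receptor, is made mainly by neutrophils and other myeloid cells. It had 3, 6, 6 and 3 counts in Control, equal to 0.159, 0.296, 0.324 and 0.164 CPM. In LLC it had 6 to 21 counts, from 0.302 to 1.08 CPM with a median of 0.485. LLC 1 and LLC 5 held the highest values, and LLC 4 lay within the Control range. The log2 fold change without the filter was 1.29 ± 0.45 (SE), which did not pass edgeR's quasi-likelihood test (unadjusted p = 0.0110, adjusted p = 0.123), and without LLC 1 it was 1.02 (adjusted p = 0.155). The summed counts of 66 and 18 gave a scaled ratio of 2.48 with an exact 95% counting interval of 1.45 to 4.43, which covers counting error only and not the spread between mice.

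Il1rl1 (ENSMUSG00000026069, chromosome 1, 40429570 to 40465415, plus strand) encodes the IL-33 receptor ST2, found on mast cells, regulatory T cells and innate lymphoid cells. It had 2, 4, 2 and 3 counts in Control (0.106, 0.197, 0.108 and 0.164 CPM) and 1 to 5 counts in LLC, with a median of 0.0803 CPM. The groups overlapped, and the highest value of all, 0.279 CPM, was that of LLC 6. The log2 fold change without the filter was -0.40 ± 0.57 (SE; edgeR's quasi-likelihood test, adjusted p = 0.691), and the exact 95% counting interval of the scaled ratio, 0.298 to 1.84, allowed a change in either direction. The ligand Il33 therefore fell in this comparison beside a receptor whose change was not detectable at this depth.

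Il18rap (ENSMUSG00000026068, chromosome 1, 40515362 to 40551705, plus strand) encodes the accessory chain of the IL-18 receptor. It had 0 counts in Control 1 to Control 3 and 2 counts, 0.109 CPM, in Control 4. In LLC it had 3 to 14 counts, from 0.174 to 0.719 CPM with a median of 0.443, and LLC 1 was highest. All 6 LLC libraries reached 3 counts and no Control library did. The log2 fold change without the filter was 3.74 ± 0.75 (SE), and Il18rap rose in that fit (edgeR's quasi-likelihood test, adjusted p = 0.0100; DESeq2's Wald test without a filter, adjusted p = 0.00636, where 7.56% of genes with an adjusted p were past the threshold). The summed counts of 49 and 2 gave a scaled ratio of 16.6 with an exact 95% counting interval of 4.34 to 140.5. Without LLC 1 the log2 fold change was 3.54 (adjusted p = 0.00413).

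The promoter of Il18rap is shown beside that of Il1b because these genes had the 2 largest fold changes among the 9 members with a count in both groups. It was taken from RefSeq on GRCm38.p6 (chr1:40515112-40515411, plus strand).
Il18rap promoter: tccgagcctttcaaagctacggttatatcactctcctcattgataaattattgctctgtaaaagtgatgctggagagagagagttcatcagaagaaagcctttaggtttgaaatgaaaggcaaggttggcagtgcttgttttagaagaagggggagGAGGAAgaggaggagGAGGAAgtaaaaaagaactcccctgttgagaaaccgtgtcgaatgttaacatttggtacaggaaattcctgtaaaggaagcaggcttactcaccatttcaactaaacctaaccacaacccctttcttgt
The ETS letters GAGGAA were matched at -94 and -79, and no letters of the other motifs were matched, so the searched motifs of the Il1b and Il18rap windows had none in common.

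Il1r2, Il1r1, Il1rl1 and Il18rap belong to a cluster of 6 receptor genes on chromosome 1 (40074079 to 40551705, 478 kb), in the order Il1r2, Il1r1, Il1rl2, Il1rl1, Il18r1 and Il18rap. The log2 fold changes of these neighbours in the fit without the filter were 1.29, 0.59, -2.23, -0.40, -0.95 and 3.74. Il1rl2, the IL-36 receptor, fell in that fit (edgeR's quasi-likelihood test, adjusted p = 0.0413), with 5, 5, 6 and 5 counts in Control and 0 to 2 in LLC. Il18r1, the ligand-binding partner of Il18rap, had 0, 0, 2 and 5 counts in Control and 0 to 2 in LLC, and its groups overlapped (adjusted p = 0.574). The cluster thus held a gene past the threshold in each direction, while the ligand-binding chain of the IL-18 receptor, Il18r1, had 7 counts over Control and 5 over LLC.

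**Figure D3:**
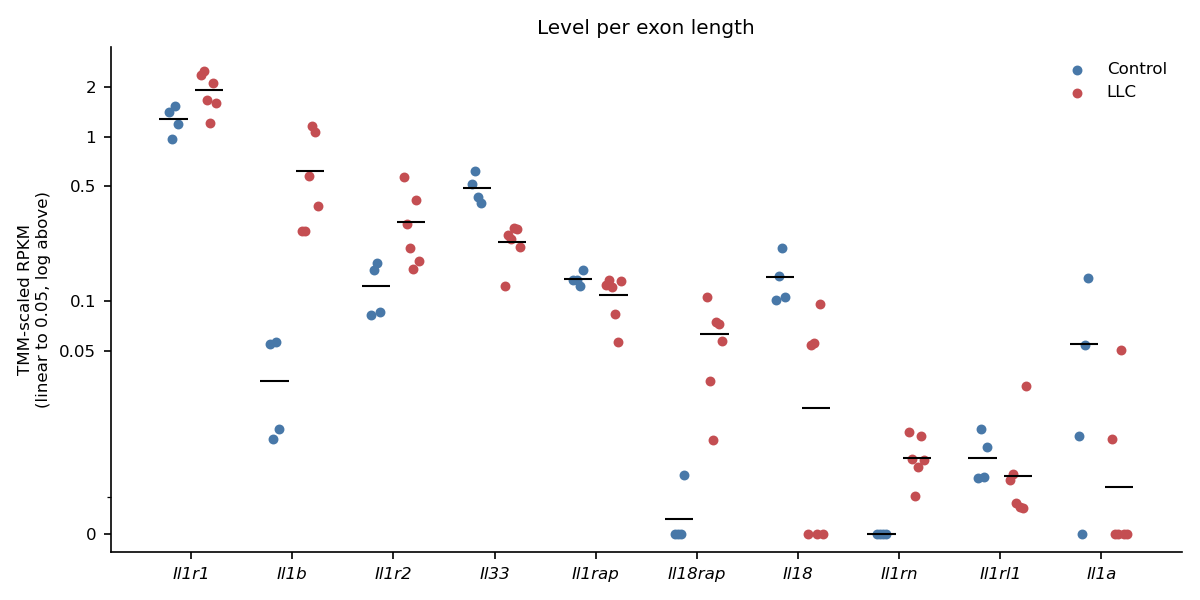
Level of each gene per kilobase of exon and library size (TMM-scaled RPKM) in every mouse, on an axis that is linear to 0.05 and logarithmic above. Blue points are the 4 Control mice, red points the 6 LLC mice and black lines the group means, and genes are ordered by their LLC mean. Il1r1 is highest in both groups, and Il1b moves from a mean of 0.0417 in Control to 0.620 in LLC.

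Levels of different genes were compared per kilobase of exon (RPKM), with all annotated exons of a gene merged, which understates genes with many isoforms. Il1r1 had the highest mean RPKM in both groups, 1.28 in Control and 1.91 in LLC. In Control, the ligand Il33 came next with 0.489 RPKM, and Il18, Il1rap and Il1r2 followed with 0.141, 0.137 and 0.124 RPKM, whereas Il1b was seventh of the 10 with 0.0417 RPKM. In LLC, Il1b came next after Il1r1 with 0.620 RPKM, and Il1r2, Il33 and Il1rap followed with 0.304, 0.231 and 0.109 RPKM. The ranges of neighbours in this order were apart only for Il1r1 above Il33 and Il33 above Il18 in Control, and for Il1r1 above Il1b in LLC. All other neighbours overlapped. The decoy Il1r2 stood at 5.89%, 16.0%, 11.1% and 7.20% of Il1r1 per length in the 4 Control mice and at 10.9% to 23.7% in LLC, with overlap. The antagonist Il1rn stood at 1.57% to 10.3% of Il1b per length in LLC, lowest in LLC 4, which had the most Il1b, and at 0 in Control. These ratios rest on 1 to 3 Il1rn counts per LLC library and on 1 or 2 Il1b counts per Control library. Since Il1b is the divisor, a low ratio where Il1b was highest carries little information.

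Markers of other cells were read in the same libraries. Of 14 neutrophil markers, all had a count, and in the fit without the filter 10 were past the threshold and higher in LLC, where 1.15% of all genes were. The other 4 were Ly6g, Mpo, Camp and Trem1. The filter kept the same number, 10. For none of these did all 4 Control libraries reach 10 counts, and for 6 no Control library did, so all 10 passed it only through their LLC counts. The summed level of the 14 was 1.38 to 3.36 CPM in Control and 37.3 to 80.5 CPM in LLC. The 2 highest sums were those of LLC 5 and LLC 4, which also had the most Il1b, whereas LLC 3, with the third highest Il1b, had the lowest sum. The defining marker Ly6g had 0 counts in Control and 0 to 4 in LLC, and Mpo, an enzyme of immature granules, had 0 to 2 counts in every library. The part of these cells in the Il1b, Il1rn, Il1r2 and Il18rap results was not tested. Of 13 monocyte and macrophage markers, 10 were tested, Ly6c2 rose and Mrc1 fell. Among the 10, 5 had an unadjusted p under 0.05 by edgeR, and 4 were past the threshold by DESeq2 and 4 by limma voom. Their median log2 fold change was -0.30. The summed level overlapped (27.8 to 42.5 CPM in Control, 24.0 to 45.1 CPM in LLC), and Lyz2 alone had means of 13.3 and 17.1 CPM in it. Ly6c2 had 3, 1, 1 and 0 counts in Control and 6 to 22 in LLC, so it passed the filter only through its LLC counts.

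**Figure D4:**
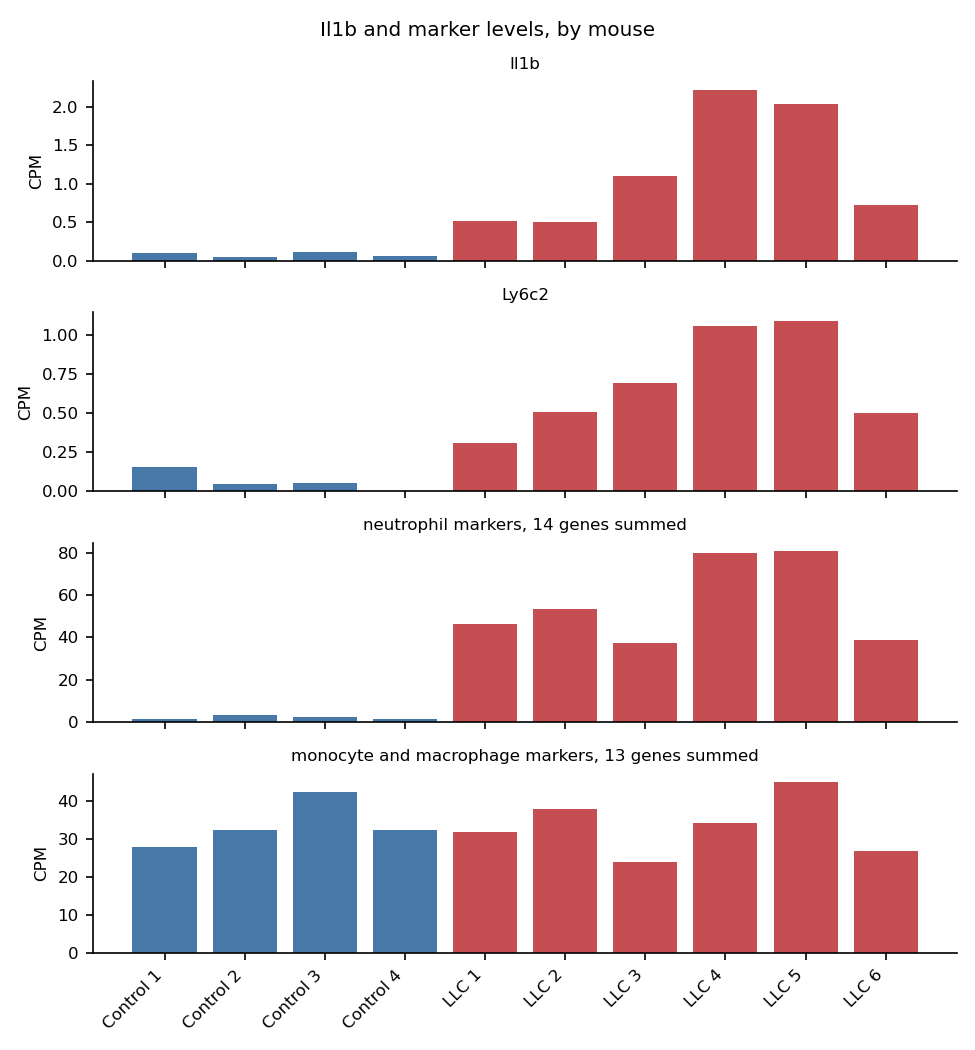
Il1b, the monocyte marker Ly6c2, and the summed neutrophil and monocyte and macrophage markers in each of the 10 mice, as TMM-scaled CPM on linear axes that start at 0 (blue, Control; red, LLC). Il1b, Ly6c2 and the neutrophil sum are highest in LLC 4 and LLC 5, whereas the monocyte and macrophage sum spans 27.8 to 42.5 in Control and 24.0 to 45.1 in LLC.

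Il33 fell in the same comparison as most fibroblast markers, of which 8 were tested, 6 fell and Ly6a rose. Their summed level was 199.7 to 240.9 CPM in Control and 126 to 173 CPM in LLC, with no overlap. The order of the LLC mice by this sum differed: LLC 1, lowest in Il33, had a sum of 151 CPM, and LLC 3 had the lowest sum. The sum includes Ly6a and Cd34, which was not past the threshold, at means of 52.2 and 42.0 CPM in LLC. Among the markers that fell, Lum, Dpt and Pi16 were lowest in LLC 1, and Pdgfra, Dcn and Mfap5 in other LLC mice. The part of fibroblasts in the Il33 result was not tested. Of 7 endothelial markers, 6 had an unadjusted p under 0.05 by edgeR, and only Kdr, which fell, was past the threshold. Cdh5 and Emcn were lower in every LLC mouse, with log2 fold changes of -0.37 (edgeR's quasi-likelihood test, adjusted p = 0.0323) and -0.43 (adjusted p = 0.0194). Vwf was higher in every LLC mouse, with 0.45 (adjusted p = 0.0289). These changes missed the threshold by their size only. The endothelial sums, 246 to 326 CPM in Control and 253 to 291 CPM in LLC, overlapped and pool changes in opposite directions. Markers of cells known to carry the receptors of IL-33 and IL-18 had low counts. Of 7 mast cell markers 2 were tested and 0 were past the threshold by edgeR (1 at an unadjusted p under 0.05, 0 by DESeq2 and 1 by limma voom), the sums were 2.12 to 4.43 CPM in Control and 1.56 to 3.32 CPM in LLC, and Ms4a2 was at 0 in every library. In the fit without the filter the 6 mast cell markers with a count all had log2 fold changes below 0, with a median of -0.99, 2 at an unadjusted p under 0.05 and 0 past the threshold (0 by DESeq2 and 1 by limma voom), and their part in the Il1rl1 and Il33 values was not tested. Of 10 markers of T, NK and innate lymphoid cells none passed the filter, and in the fit without it 0 were past the threshold by edgeR, 0 at an unadjusted p under 0.05, and 0 by DESeq2 and limma voom. Their sums overlapped at 0.270 to 0.423 CPM in Control and 0.223 to 0.594 CPM in LLC, and at such counts the part of these cells in the Il18rap result was not tested.

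The genes whose log2 CPM over the 10 samples was most like that of each member past the threshold were named among 12686 other tested genes, as a description with no test. For Il1b they were Ly6c2, a surface protein of inflammatory monocytes (Pearson's r = 0.970), ENSMUSG00000089672 (r = 0.953) and Wfdc17 (r = 0.948), and within the 6 LLC mice alone the r values were 0.950, 0.835 and 0.831. All 3 were past the threshold and higher in LLC, and Ly6c2 was among the tested genes only through its LLC counts. ENSMUSG00000089672 and Wfdc17 had Control means of 0.489 and 0.278 CPM, too low for 10 counts in every Control library. Both thus also needed LLC counts to pass the filter, as Il1b did, so the choice of tested genes favoured a rise in LLC here. For Il33 they were 2310002L09Rik (r = 0.969), Tceal7 (r = 0.962) and Acyp2 (r = 0.954), and within LLC the r values were 0.954, 0.921 and 0.864. Of these Tceal7 fell with a log2 fold change of -0.89 (edgeR's quasi-likelihood test, adjusted p = 0.0183), and the others had -0.19 (adjusted p = 0.158) and -0.16 (adjusted p = 0.177). The points share libraries and the difference between the groups.

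The wider pathway was followed in 5 lists with 77 genes, of which 44 were tested and 5 were past the threshold, 4 higher and 1 lower, or 11.4% beside 5.63% of all tested genes. Of the 5, Sele had at most 1 count per Control library and Bcl3 had 8 in Control 2, so both needed LLC counts to pass the filter. Casp4, with 10 to 16 counts in Control, was near its minimum. Without LLC 1, 6 pathway genes were past the threshold: Casp4, Bcl3, Selp and Nos2 again, joined by Sigirr (log2 fold change -0.61, adjusted p = 0.0186, edgeR) and Irak2 (-0.64, adjusted p = 0.00952), whereas Sele missed the filter. In that fit calls over all tested genes also rose, to 966 of 12624 from 715 of 12690. Among 11 other genes of the family and its receptors, 2 were tested and 0 were past the threshold by edgeR (1 at an unadjusted p under 0.05, 0 by DESeq2 and 1 by limma voom). These 2 were Sigirr, an inhibitory receptor, with 2.44 ± 0.268 CPM in Control (SD, n = 4) and a log2 fold change of -0.54 (adjusted p = 0.0556), and Il18bp, a soluble trap for IL-18, with a log2 fold change of 0.10 (adjusted p = 0.782). Without the filter, Il36g, an epithelial and myeloid cytokine of the family on chromosome 2 (24186476 to 24193568), rose with a log2 fold change of 3.39 (edgeR's quasi-likelihood test, adjusted p = 0.0127). It had 0, 2, 0 and 0 counts in Control and 3 to 9 in LLC. Its kin Il36a, Il36b, Il36rn and Il1f10 were at 0 in every library.

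Of 15 inflammasome and cytokine processing genes, 5 were tested and only Casp4 was past the threshold. Casp4, the mouse caspase-11 that senses bacterial lipopolysaccharide, was at 0.547 to 0.794 CPM in Control and at 0.903 to 3.12 CPM in LLC, and it rose with a log2 fold change of 1.44 ± 0.36 (SE; edgeR's quasi-likelihood test, adjusted p = 0.0369). Casp1, which cuts pro-IL-1 beta, had 5 to 11 counts per library and a log2 fold change of 0.05 without the filter (adjusted p = 0.942), and the sensor Nlrp3 had 1 to 3 counts per library. The median log2 fold change of the 5 was 0.11, beside 0.00 over all tested genes.

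All 18 receptor adaptors and kinases were tested and 0 were past the threshold by edgeR (7 at an unadjusted p under 0.05, 1 by DESeq2 and 0 by limma voom). The 2 with the highest level were Tab2, with 155 ± 6.21 CPM in Control and 167 ± 12.8 CPM in LLC, and Map3k7, the TAK1 kinase, with 80.4 ± 2.85 and 82.2 ± 8.14 CPM (SD, n = 4 and n = 6). Their log2 fold changes were 0.11 (adjusted p = 0.399) and 0.03 (adjusted p = 0.842). The adaptor Myd88 had a log2 fold change of 0.64 (adjusted p = 0.0593), and the median of the list was 0.09.

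Of 12 NF-kappaB subunits and inhibitors, 11 were tested, and Bcl3, a nuclear cofactor of NF-kappaB, was past the threshold. It was at 0.395 to 1.35 CPM in Control and at 1.45 to 3.07 CPM in LLC, with no overlap, and rose with a log2 fold change of 1.59 ± 0.33 (SE; edgeR's quasi-likelihood test, adjusted p = 0.0157). Nfkb2 had the next largest difference, 1.24 ± 0.52 (SE; adjusted p = 0.153), with 1009 counts in LLC 1 against 134 to 249 in the other LLC mice. The median log2 fold change of the 11 was 0.49, and 6 had an unadjusted p under 0.05. The summed level of the 12 genes was 234 CPM in LLC 1 and 94.4 to 137 CPM in the other LLC mice. Without LLC 1 Bcl3 was still past the threshold (log2 fold change 1.68, adjusted p = 0.00611, edgeR), and the list median was 0.41. In that fit Nfkb2 had 0.50 (adjusted p = 0.0334, edgeR) and Nfkbib 0.43 (adjusted p = 0.0464), and both changes were under 1.5-fold.

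Of 21 genes known to respond to IL-1, 8 were tested, 2 rose and 1 fell. Sele and Selp, the E- and P-selectins by which vessel walls catch leukocytes, rose with log2 fold changes of 5.00 ± 0.73 and 2.72 ± 0.26 (SE; edgeR's quasi-likelihood test, adjusted p = 0.00186 and 0.000184). Sele had 1 count over the Control group and 5 to 20 counts in each LLC mouse, so the size of its fold change rests on that count, and Selp was at 0.592 to 1.03 CPM in Control and at 3.53 to 6.95 CPM in LLC. Nos2, inducible nitric oxide synthase, was at 4.54 to 6.11 CPM in Control and at 2.16 to 4.03 CPM in LLC, and fell with a log2 fold change of -0.70 ± 0.16 (SE; adjusted p = 0.0269). The cytokine genes that IL-1 induces in many cells were at or near the floor in both groups: Cxcl1 had 0 to 4 counts per library, Ccl2 0 to 6, Il6 0 to 6 and Csf3 0 to 1, and Csf2 and Cxcl5 were at 0 throughout. No change in these cytokine targets was detectable at this depth. The median log2 fold change of the 8 tested genes was 0.40, and that of the 7 tested without LLC 1 was -0.05.

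**Figure D5:**
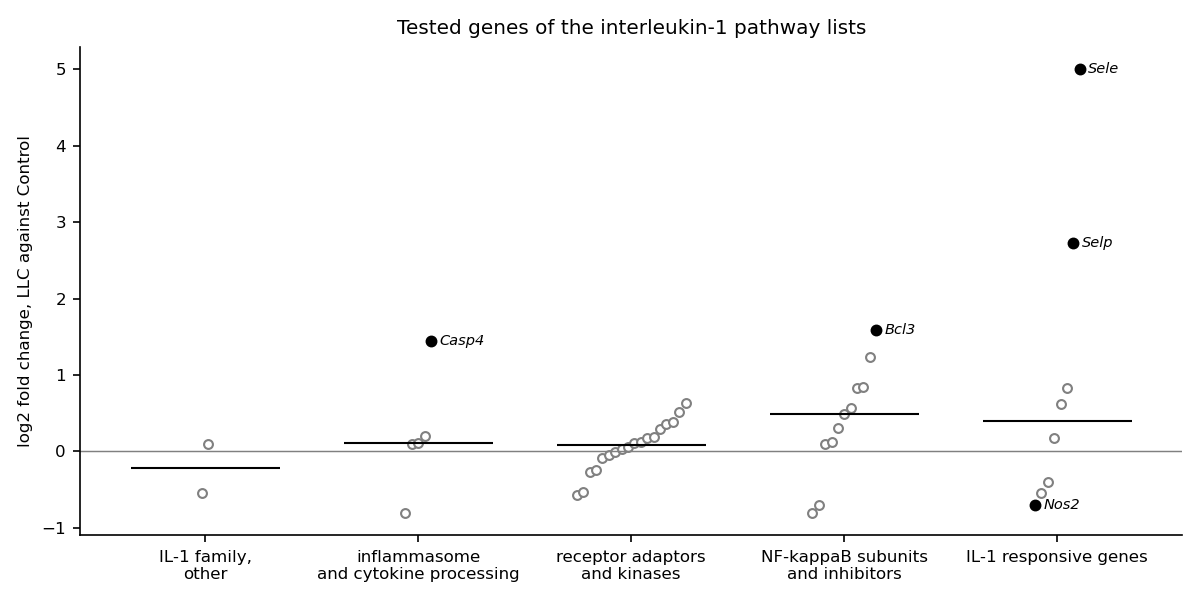
Log2 fold change of LLC against Control for the 44 tested genes of the 5 pathway lists, 1 point per gene, with the list median as a black line. Filled points are past the threshold and named. The medians are -0.22, 0.11, 0.09, 0.49 and 0.40 from left to right, and the 5 filled points are Casp4, Bcl3, Sele, Selp and Nos2.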

How the data were processed

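RNA of tibialis anterior was sequenced from both ends as stranded total RNA, 1 library per mouse. The authors mapped reads to mm10 with TopHat2 and counted them with HTSeq at default settings, and the deposited values are whole-number counts per gene, not normalized. The methods name RefSeq genes, but the files list Ensembl identifiers, so the annotation release and strand setting were treated as unknown, which matters for genes with antisense partners. Symbols were matched for 37607 of 39179 identifiers, and coordinates came from GENCODE M21.

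Genes were kept by edgeR's filterByExpr (minimum count 10), scaled by TMM and compared between 4 Control and 6 LLC libraries with no covariate by the quasi-likelihood test (R 4.3.3, edgeR 4.0.16). The threshold was a change of 1.5-fold or more together with a Benjamini-Hochberg adjusted p, over all tested genes, of at most 0.05. The fits by edgeR, DESeq2 and limma voom were tested on simulated counts. Members that the filter dropped were fitted with every gene that had a count, an alternative added after seeing the data. Other alternatives were DESeq2 1.42.0 (the authors' tool), limma 3.58.1 voom, library scaling, filters, the replicate block and each library left out.

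The members, gene lists and tests were chosen with earlier results of these data known. Named were all members, the list genes past the threshold (or the 2 at the highest level), and the 3 genes most like each member past it, and other list genes were named after their values were seen. Counting intervals (95%, exact) cover counting error only, since PCR copies are not independent molecules. Pairs of libraries differed beyond sampling noise, with a chi-square per degree of freedom of 3.89 to 8.64 in Control and 8.36 to 194 in LLC, so each was counted as 1 replicate.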

Additional observations from a re-analysis of the deposited data

Results flagged for a closer look

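Values by gene and group formed 20 sets, of which 2 held a library far from the others by Dixon's criterion on log2 CPM with a prior count of 2, where chance alone gives about 1 in 20. For Il18rap in Control, the gap of Control 4 to the others took up the whole range (gap ratio 1), because it had 2 counts, 0.109 CPM, and the other 3 Control libraries had 0. Without Control 4 the log2 fold change of Il18rap without a filter was 6.05 (edgeR's quasi-likelihood test, adjusted p = 0.00914), against 3.74 with it. The first of these is set by the fit's handling of a Control group with no count and is no bound on the change. For Il33 in LLC, LLC 1 lay below the others with a gap ratio of 0.650 on that log scale, at 0.360 CPM against 0.614 CPM in the next library, from 7 counts. On linear CPM the ratio was 0.571, under the criterion of 0.625 for 6 libraries. LLC 1 is also the library with the lowest muscle marker sum, and without it Il33 was still past the threshold, with a log2 fold change of -0.94.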

How the results depend on the processing

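Against 2 members and 5 pathway genes past the threshold, the fit with no filter on low counts gave 4 and 9, and DESeq2 without a filter, added after seeing the data, gave 10 pathway genes. With at least 10 counts required in every library, 0 members and 3 pathway genes were past it, since Il1b and Il33 then went untested. In that fit 475 of 11379 genes were past it. Leaving out 1 library at a time gave 1 to 3 members and 2 to 6 pathway genes. The lowest member counts came without Control 1 or Control 2, where Il33 lost its call, the highest without LLC 4, and pathway counts were 2 without Control 1, Control 4, LLC 5 or LLC 6 and 3 without Control 2. Over all tested genes, 417, 418, 492, 477 and 438 were past the threshold without Control 1, Control 4, LLC 5, LLC 6 and Control 2. The full fit had 715, and the fit without LLC 4 had 805. The cause was not tested. Il1b was past the threshold in 10 of 10 such fits, with log2 fold changes of 3.53 to 3.98, and Il18rap without the filter in 10 of 10.

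The replicate numbers did not pair the samples: deviations of same-numbered libraries from their group means correlated at -0.03, 0.01, -0.08 and 0.13. With the replicate number as a block, over replicates 1 to 4 of each group, 0 members, 1 pathway gene and 107 genes in all were past the threshold, with fewer samples than in the full comparison. Il1b missed the filter there, and without the filter it had a log2 fold change of 3.57 (adjusted p = 0.0124), whereas Il33 had -1.12 (adjusted p = 0.197) and Il18rap 3.70 (adjusted p = 0.108). No fold change of a member reversed under any alternative run, and upper-quartile scaling moved the median of all genes by -0.03.

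Depth limits the 6 members that the filter dropped, which had 0 to 21 counts per library, so a change in Il1a, Il18 or Il1rl1 of a few counts could not be resolved.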

Other observations

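Among IL-1 responsive genes outside the filter, Saa3, a serum amyloid A gene expressed outside the liver, had 0 counts in every Control library and 4, 1, 2, 3, 2 and 2 counts in LLC 1 to LLC 6, and it rose in the fit without the filter (edgeR's quasi-likelihood test, adjusted p = 0.0320). Mmp13, a collagenase, was past the threshold and lower in that fit (adjusted p = 0.00895), with 6, 44, 91 and 1 counts in Control and 0 to 2 in LLC. The groups overlapped for Mmp13, since Control 4 had 1 count, and its Control mean of 1.87 CPM had an SD of 2.24.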
